A study of Mus musculus and Rattus norvegicus with 51 samples.

Results

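The comparison set HSC-T6 cells given [H] HMGB1 for 6 h against HSC-T6 cells given BSA for the same time. HSC-T6 is an immortal rat cell line that was made from hepatic stellate cells. The members were the 3 libraries of each treatment, taken by their labels, so 6 of the 51 libraries of the study were used, with all genes of their table. That table listed 17327 genes, of which 10140 had enough reads over its 12 libraries to be tested. Over these 6 libraries alone 9911 genes had enough. Both groups carry the genotype label WT and the label Male, and the labels give no dose. The brackets are not spelled out in the labels. By its title the study is about redox-sensitive forms of HMGB1 while liver fibrosis advances and resolves, and its other cell libraries, 3 each, received [O] HMGB1 or [SO3] HMGB1 for 6 h. BSA, bovine serum albumin, is the protein control. The model is 1 cell line in culture, and the labels do not say whether the numbered libraries came from separate cultures. All p-values therefore measure the spread between these libraries, which may be technical.

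HMGB1 sits on DNA in the nucleus and acts as a danger signal once it is outside the cell, where RAGE (gene Ager) and the Toll-like receptors TLR2 and TLR4 are among its receptors. The cysteines of HMGB1 can be reduced or oxidised, and its activity toward immune cells is known to depend on that state. Hepatic stellate cells store vitamin A in healthy liver. After injury they become contractile myofibroblasts that secrete collagen and chemokines.

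The libraries held 15585400, 15982892 and 16027984 gene counts with [H] HMGB1, against 14557156, 14057522 and 11752661 with BSA, so the BSA group was the shallower one. Markers of the myofibroblast state were abundant in all 6 libraries. The summed level of the 17 stellate cell markers ran from 64900 to 66100 CPM with [H] HMGB1 and from 67500 to 71900 CPM with BSA, where CPM is counts per 1 M library counts after TMM scaling. The retinoid enzyme gene Lrat had 0 counts in all 6 libraries, and Reln, another marker of the quiescent cell, had 2 counts in all. Of the 10 macrophage markers, 5 were at 0 (Ptprc, Adgre1, Cd163, Marco and Itgam). Their sum was 1.05 to 1.15 CPM with [H] HMGB1 and 1.2 to 2.11 CPM with BSA. The 10 hepatocyte markers summed to 0.744 to 0.929 CPM with [H] HMGB1 and 0.544 to 0.855 CPM with BSA. Endothelial markers summed to 16.9 to 18 CPM and 15.6 to 18 CPM in the same order, with Tek at 9.92 to 12.7 CPM over the 6 libraries. Cholangiocyte markers summed to 24.9 to 26.8 CPM and 25.3 to 32.7 CPM, with Sox9 at 22.1 to 29.6 CPM. For T and NK cell markers the sums were 1.84 to 2.6 CPM and 1.8 to 2.79 CPM. BSA library 3 stood apart from its group. The chi-square per degree of freedom between replicate libraries was 5.33 and 3.28 for its pairs, 2.34 for the other BSA pair, and 1.46 to 1.9 between the [H] libraries.

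The first genes examined were those of the added protein and its receptors. None of them passed the test. Hmgb1 measured 37.7, 37.8 and 36.0 CPM with [H] HMGB1, against 36.3, 40.8 and 45.3 CPM with BSA, and the groups overlapped (log2 fold change -0.13, SE 0.07, adjusted p = 0.333). Ager, the RAGE gene, measured 5.73, 5.95 and 8.06 CPM with [H] HMGB1, against 5.65, 5.61 and 5.64 CPM with BSA (log2 0.22, SE 0.14, adjusted p = 0.432). Tlr4, which encodes the lipopolysaccharide receptor, averaged 70.6 ± 1.89 CPM with [H] HMGB1 and 67.2 ± 2.42 CPM with BSA (SD, n = 3 each; adjusted p = 0.535). Tlr2 had only 5 counts over the [H] libraries and 3 over the BSA libraries, so a small difference in it was not detectable at this depth. A large rise was detectable, since the gene averaged 13.3 CPM with [O] HMGB1 (log2 6.895 against [H] HMGB1, adjusted p = 1.05e-16). Of the 13 tested genes on the list of HMGB1, its relatives and its receptors, 0 passed the test in either direction, beside 0.799% of all tested genes.

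Between [H] HMGB1 and BSA, 81 of 10140 genes passed the test at an adjusted p under 0.05 (edgeR's quasi-likelihood test, Benjamini-Hochberg), which is 0.799% of the genes tested. Of these, 32 were higher with [H] HMGB1 (0.316%) and 49 lower (0.483%). At an unadjusted p under 0.05 there were 1713 genes. The changes were small, with a median size of 18.8%. Serpinb2 alone passed 2-fold, 5 genes fell past 1.5-fold (Serpinb2, Egr2, Kcnk2, Il1rn and Ccl2) and 1 rose past it (Apln). In all 81 genes the [H] and BSA libraries did not overlap, a pattern that 24.4% of the tested genes showed. The median log2 fold change of all genes was 0.00251. A fit of only these 6 libraries called 454 genes, 272 higher and 182 lower, and held all 81. With counts scaled to library totals in place of TMM factors the split turned to 56 higher and 45 lower.

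**Figure D1:**
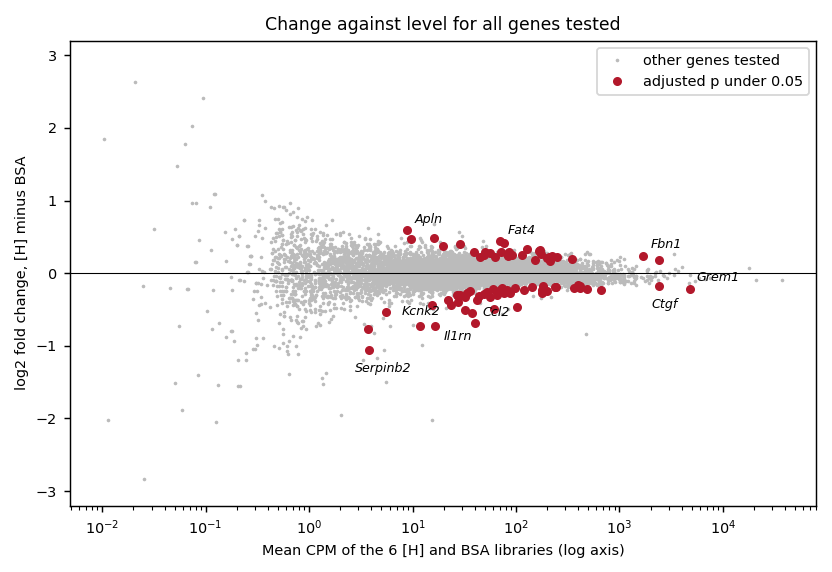
Each point is 1 of the 10140 genes tested, with its mean CPM over the 6 libraries on a log axis and its log2 fold change ([H] HMGB1 minus BSA) on the other; red points are the 81 genes with an adjusted p under 0.05. Most red points lie close to the zero line among well-expressed genes, Serpinb2 is the lowest of them at -1.06 and Apln the highest at 0.59.

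Of the genes of inflammatory signalling, Ccl2, Il1rn and Ptgs2 were lower with [H] HMGB1. Ccl2 encodes the chemokine that draws monocytes into injured liver. It measured 34.4, 27.9 and 30.1 CPM with [H] HMGB1, against 46.9, 50.3 and 51.9 CPM with BSA (log2 -0.69, SE 0.09, adjusted p = 0.00167). The highest [H] library was below the lowest BSA library. Of the 12 chemokine ligands tested, Ccl2 was the only one past the test, beside 0.799% of all tested genes. Its neighbour in function Ccl7, another monocyte attractant, measured 3.37, 2.66 and 4.28 CPM with [H] HMGB1, against 5.99, 9.09 and 6.33 CPM with BSA, without overlap (log2 -1.06, adjusted p = 0.0939). Cxcl12, which retains progenitor cells in their niche, stood the other way, at 231, 244 and 227 CPM with [H] HMGB1, against 202, 208 and 221 CPM with BSA (log2 0.16, adjusted p = 0.0675). Neither of these passed. The median log2 fold change of the chemokine list was -0.121, beside 0.00251 for all genes, and -0.0237 without BSA library 3.

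Il1rn encodes the secreted antagonist of the interleukin-1 receptor. It measured 13.2, 11.4 and 12.8 CPM with [H] HMGB1, against 21.5, 20.6 and 19.7 CPM with BSA (log2 -0.73, SE 0.09, adjusted p = 0.000171). The groups lay far apart relative to their spread. The other 11 of the 12 tested genes of the interleukin-1 family did not pass; Casp4, an inflammatory caspase, had 46.9 CPM with [H] HMGB1 and 52.3 CPM with BSA on average (adjusted p = 0.135), and Nlrp3, the inflammasome sensor, had 19.1 and 22.1 CPM in the same order (adjusted p = 0.197). Ptgs2, the inducible cyclooxygenase that starts prostaglandin synthesis, measured 19.2, 20.5 and 19.8 CPM with [H] HMGB1, against 26.3, 26.5 and 28.0 CPM with BSA (log2 -0.44, SE 0.06, adjusted p = 0.000358). Both groups were tight and did not overlap. On the list of prostaglandin and nitric oxide genes, 1 of 11 passed, beside 0.799% of all tested genes. The constitutive enzyme gene Ptgs1 was at 1331 CPM with [H] HMGB1 and 1349 CPM with BSA (adjusted p = 0.793).

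Regulators of NF-kB and of the early stimulus response gave a single call. Of 15 tested NF-kB subunits, inhibitors and feedback genes 0 passed, beside 0.799% of all tested genes, and their median log2 fold change was 0.054. Nfkbia, the inhibitor that NF-kB itself induces, measured 30.1, 28.7 and 28.7 CPM with [H] HMGB1, against 26.5, 25.8 and 24.4 CPM with BSA (log2 0.19, adjusted p = 0.119). The [H] libraries were all above the BSA libraries, but the test was not passed. Of 12 cytokines and colony-stimulating factors 0 passed, with Il6 at 3.00 CPM in [H] and 2.70 CPM in BSA cells (adjusted p = 0.73). Of 22 immediate early factors only Egr2, a zinc finger transcription factor of the early growth response family, passed. It was low throughout, at 3.44, 2.23 and 2.54 CPM with [H] HMGB1, against 4.56, 5.47 and 3.85 CPM with BSA (log2 -0.77, SE 0.18, adjusted p = 0.045). Its relative Egr1 stood higher without passing, at 14.0 CPM with [H] HMGB1 and 10.1 CPM with BSA (log2 0.45, adjusted p = 0.0865). None of 18 MAP kinase phosphatase and Sprouty feedback genes passed.

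Serpinb2, an inhibitor of plasminogen activation, was lower. The gene encodes plasminogen activator inhibitor type 2, an intracellular and secreted serpin. It measured 2.67, 2.11 and 2.60 CPM with [H] HMGB1, against 5.44, 5.18 and 4.70 CPM with BSA (log2 -1.06, SE 0.17, adjusted p = 0.00173), and fell by 52.0%. No [H] library lay inside the BSA range. Plat, the tissue plasminogen activator gene, measured 330, 264 and 276 CPM with [H] HMGB1, against 303, 345 and 371 CPM with BSA, with overlap (adjusted p = 0.257). The median of the 13 tested plasminogen activator and serpin genes was -0.0638, with 11 of 13 negative.

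Kcnk2, Lgalsl, Rasl11b, Enpp3, Rcan1 and Akap7 also fell. Kcnk2, which encodes a potassium leak channel opened by membrane stretch, measured 8.78, 8.61 and 9.42 CPM with [H] HMGB1, against 14.97, 16.1 and 13.2 CPM with BSA (log2 -0.73, SE 0.10, adjusted p = 0.000721). Lgalsl, a galectin-like protein gene, measured 31.0, 30.4 and 30.1 CPM with [H] HMGB1, against 41.3, 45.7 and 47.7 CPM with BSA (log2 -0.55, SE 0.06, adjusted p = 9.34e-05), the smallest adjusted p of the named genes. Rasl11b, a small GTPase gene of the Ras-like family, measured 27.4, 25.5 and 27.2 CPM with [H] HMGB1, against 35.9, 40.1 and 37.2 CPM with BSA (log2 -0.50, SE 0.07, adjusted p = 0.000806). All of these groups were separate. Enpp3, an enzyme that splits extracellular nucleotides, averaged 23.9 ± 0.947 CPM with [H] HMGB1 and 31.6 ± 0.723 CPM with BSA (log2 -0.40, adjusted p = 0.00149). Rcan1, an inhibitor of the phosphatase calcineurin and itself a calcineurin target, averaged 50.8 ± 1.95 CPM with [H] HMGB1 and 71.3 ± 4.3 CPM with BSA (log2 -0.49, adjusted p = 0.0111). Akap7, which anchors protein kinase A, averaged 13.1 ± 0.714 CPM with [H] HMGB1 and 17.7 ± 1.29 CPM with BSA (log2 -0.44, adjusted p = 0.0165).

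Of 9 tested Wnt genes 2 fell, beside 0.483% of all tested genes called lower. Nkd2 encodes an inhibitor of Wnt signalling that binds Dishevelled. It measured 88.9, 81.7 and 86.2 CPM with [H] HMGB1, against 124, 126 and 103 CPM with BSA (log2 -0.46, SE 0.06, adjusted p = 0.000171). BSA library 3 was the lowest of its group and still above every [H] library. The ligand gene Wnt9a averaged 25.7 ± 0.879 CPM with [H] HMGB1 and 31.6 ± 0.783 CPM with BSA (log2 -0.30, SE 0.06, adjusted p = 0.0227). Axin2, a feedback gene that Wnt signalling induces, was at 35.2 CPM with [H] HMGB1 and 30.1 CPM with BSA (log2 0.23, adjusted p = 0.174). The median of the Wnt list was -0.000692.

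Within the TGF-beta and BMP system, 3 secreted members changed and no receptor passed the test. Grem1 encodes gremlin, a secreted BMP antagonist, and was among the most highly counted of the changed genes. It measured 4575, 4344 and 4366 CPM with [H] HMGB1, against 5051, 5102 and 5239 CPM with BSA (log2 -0.21, SE 0.03, adjusted p = 0.00102). The ligand gene Tgfb3 measured 190.3, 174 and 188 CPM with [H] HMGB1, against 223, 225 and 205 CPM with BSA (log2 -0.24, SE 0.05, adjusted p = 0.0111). Bmp4, a ligand that gremlin binds, measured 54.7, 51.8 and 52.6 CPM with [H] HMGB1, against 47.0, 41.5 and 44.97 CPM with BSA (log2 0.25, SE 0.06, adjusted p = 0.045). These 3 were the calls among 22 ligands, receptors, antagonists and latent binders, beside 0.799% of all tested genes. The list's median was 0.036, and -0.0288 with a trend by transcript length removed, as described below. Tgfb1, the ligand best known for driving fibrosis, averaged 118 ± 2.45 CPM with [H] HMGB1 and 115 ± 3.02 CPM with BSA (log2 0.04, adjusted p = 0.753). Of 17 SMAD and ID genes 1 passed. Id2, an inhibitor of helix-loop-helix transcription factors that BMP signals induce, measured 4.64, 4.64 and 4.34 CPM with [H] HMGB1, against 5.92, 6.75 and 7.18 CPM with BSA (log2 -0.53, SE 0.13, adjusted p = 0.0444). Its relatives Id1 (adjusted p = 0.672) and Id3 (0.567) did not pass.

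Collagen and contractile genes, which define the myofibroblast, gave no call. Of 16 tested collagens 0 passed, with a median log2 fold change of -0.00058. Over all tested genes 0.799% passed, and at that share lists of this size will often hold no call. Col1a1 measured 36910, 36080 and 36590 CPM with [H] HMGB1, against 37810, 39040 and 39890 CPM with BSA (log2 -0.09, SE 0.03, adjusted p = 0.158). The groups did not overlap, and the fit of only these 6 libraries called the gene lower (log2 -0.10, adjusted p = 0.044). That fit called 2 of the collagens lower, Col1a1 included. The summed level of the collagen list was 76100 to 77900 CPM with [H] HMGB1 and 79500 to 82400 CPM with BSA. Col3a1 measured 20570, 20100 and 19850 CPM with [H] HMGB1, against 21060, 21300 and 22470 CPM with BSA (adjusted p = 0.147). Col1a2 had 72.1 ± 6.63 CPM with [H] HMGB1 and 70.4 ± 2.66 CPM with BSA (adjusted p = 0.853). Acta2, the smooth muscle actin gene used as the marker of activation, measured 614, 619 and 607 CPM with [H] HMGB1, against 642, 656 and 644 CPM with BSA (log2 -0.08, SE 0.03, adjusted p = 0.216). It was one of 18 contractile and filament genes, of which 0 passed (median -0.0155). Timp1, the inhibitor of matrix metalloproteinases, averaged 175 ± 4.44 CPM with [H] HMGB1 and 184 ± 14.3 CPM with BSA (adjusted p = 0.613), and 0 of 18 metalloproteinase and inhibitor genes passed.

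Matrix genes outside the collagens changed in both directions. The counts by list that follow stand beside 0.799% of all tested genes called. Cyr61 and Ctgf encode matricellular CCN proteins and are standard readouts of the mechanosensitive factor YAP. Cyr61 measured 163, 157 and 167 CPM with [H] HMGB1, against 189, 211 and 191 CPM with BSA (log2 -0.28, SE 0.05, adjusted p = 0.006). Ctgf measured 2216, 2257 and 2268 CPM with [H] HMGB1, against 2410, 2513 and 2731 CPM with BSA (log2 -0.18, SE 0.04, adjusted p = 0.0206). They were the 2 of 15 YAP target genes that passed, while the median of that list was 0.0882. It was 0.0312 with a trend by transcript length removed, as described below. Fbn1, the gene of the microfibril protein fibrillin, measured 1788, 1846 and 1903 CPM with [H] HMGB1, against 1599, 1502 and 1584 CPM with BSA (log2 0.24, SE 0.04, adjusted p = 0.00951). Of 19 microfibril, elastic and matricellular genes these made 1 rise and 2 falls. C1qtnf3, a secreted C1q-like protein gene, measured 622, 603 and 602 CPM with [H] HMGB1, against 694, 717 and 726 CPM with BSA (log2 -0.23, SE 0.04, adjusted p = 0.00149). Plod2, the lysyl hydroxylase of collagen telopeptides, averaged 387 ± 2.95 CPM with [H] HMGB1 and 436 ± 30.1 CPM with BSA (log2 -0.17, adjusted p = 0.045) and was the 1 call among 16 collagen crosslinking genes. Cd55, which dissociates the complement convertases on the cell surface, was the 1 call among 12 complement genes (33.2 ± 1.44 CPM with [H] HMGB1, 39.3 ± 1.71 CPM with BSA, log2 -0.24, adjusted p = 0.045).

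The higher genes were led by a peptide hormone. Apln encodes apelin, which acts on blood vessels through its own receptor. It measured 10.5, 11.3 and 10.3 CPM with [H] HMGB1, against 7.08, 7.10 and 7.10 CPM with BSA (log2 0.59, SE 0.11, adjusted p = 0.011). It was the only call among 17 angiogenic and hypoxia genes, beside 0.799% of all tested genes called. Several transcription regulators followed. The zinc finger gene Zfp710 measured 18.1, 19.9 and 19.0 CPM with [H] HMGB1, against 15.5, 14.3 and 10.3 CPM with BSA (log2 0.49, SE 0.11, adjusted p = 0.0274), with BSA library 3 the lowest. Zfp467, another zinc finger gene, measured 31.2, 34.4 and 31.9 CPM with [H] HMGB1, against 25.3, 26.2 and 22.1 CPM with BSA (log2 0.40, SE 0.08, adjusted p = 0.0165). Zfhx4, a zinc finger homeobox gene, averaged 185 ± 5.04 CPM with [H] HMGB1 and 149 ± 9.96 CPM with BSA (log2 0.31, adjusted p = 0.00951). Zmiz1, a transcriptional coregulator of the PIAS-like group, measured 185, 187 and 198 CPM with [H] HMGB1, against 161, 154 and 141 CPM with BSA (log2 0.32, adjusted p = 0.0318). Elf4, an ETS family factor, averaged 43.7 ± 1.03 CPM with [H] HMGB1 and 35.6 ± 0.623 CPM with BSA (log2 0.29, adjusted p = 0.0301).

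Fat4, Itga1, Olfml2a, Kif21b, Adgrl1 and Phlpp2 were the other leading rises. Fat4, an atypical cadherin, measured 75.5, 81.2 and 88.3 CPM with [H] HMGB1, against 63.4, 56.7 and 60.0 CPM with BSA (log2 0.44, SE 0.09, adjusted p = 0.0306). Itga1, the integrin chain that binds collagen, measured 138, 139.9 and 153 CPM with [H] HMGB1, against 110.0, 113 and 120.0 CPM with BSA (log2 0.33, SE 0.07, adjusted p = 0.0227). It was the 1 call among 12 integrins, beside 0.799% of all tested genes called. Olfml2a, a secreted olfactomedin-domain protein gene, averaged 11.2 ± 0.791 CPM with [H] HMGB1 and 8.05 ± 1.0 CPM with BSA (log2 0.47, adjusted p = 0.0306). Kif21b, a kinesin motor gene, averaged 88.6 ± 1.69 CPM with [H] HMGB1 and 66.2 ± 4.53 CPM with BSA (log2 0.42, adjusted p = 0.0223). Adgrl1, an adhesion G protein-coupled receptor of the latrophilin group, averaged 93.9 ± 3.47 CPM with [H] HMGB1 and 76.4 ± 9.36 CPM with BSA (log2 0.29, adjusted p = 0.0487). Phlpp2, a phosphatase that acts on the kinase AKT, averaged 22.1 ± 0.788 CPM with [H] HMGB1 and 17.1 ± 1.27 CPM with BSA (log2 0.37, adjusted p = 0.045). In all of these the [H] libraries lay above the BSA libraries, as they did for 13.7% of the genes tested.

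**Figure D2:**
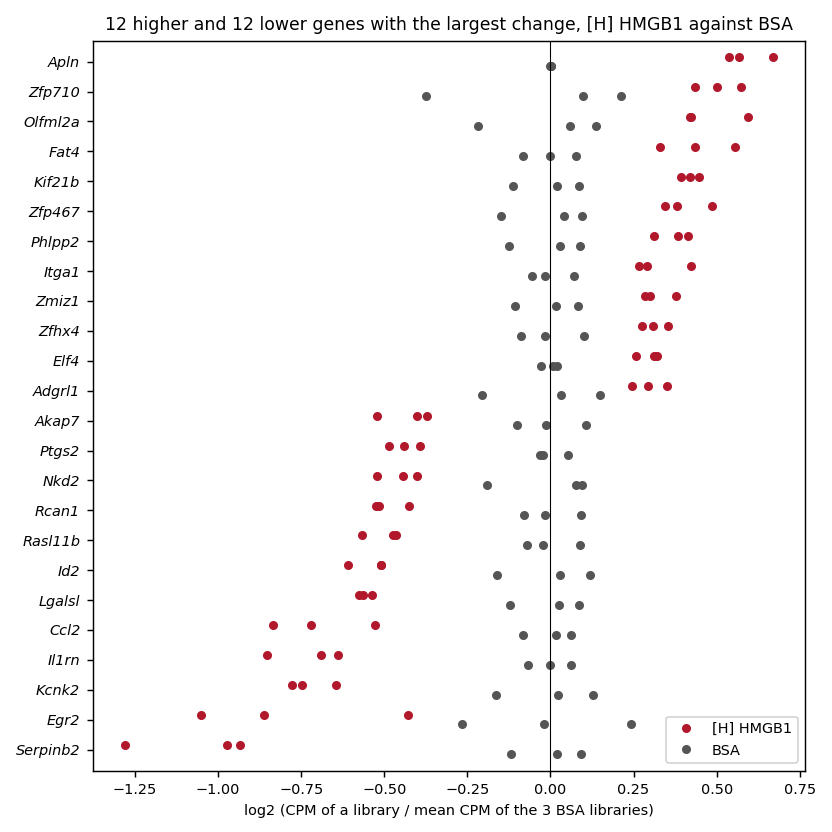
The 12 higher and 12 lower called genes with the largest change, with 1 point per library; the horizontal axis is the log2 ratio of a library's CPM to the mean of the 3 BSA libraries, [H] HMGB1 in red and BSA in grey. In every gene the [H] points lie on one side of all BSA points, most widely for Serpinb2, and the [H] points of Egr2 come closest to the BSA points among the lower genes.

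Cell cycle genes gave single calls, beside 0.316% of all tested genes called higher. Mki67, the Ki-67 proliferation marker, measured 372, 372 and 379 CPM with [H] HMGB1, against 328, 315 and 341 CPM with BSA (log2 0.19, SE 0.05, adjusted p = 0.045), the 1 rise among 28 mitosis and kinetochore genes. Uhrf1, which brings the maintenance DNA methyltransferase to replicated DNA, measured 64.2, 70.5 and 69.7 CPM with [H] HMGB1, against 60.1, 57.8 and 56.3 CPM with BSA (log2 0.23, SE 0.05, adjusted p = 0.0363), the 1 rise among 27 DNA replication genes. The median log2 fold change was 0.0433 for the mitosis list and 0.05 for the replication list, and 0.0876 and 0.078 without BSA library 3. Aspm, a spindle gene, stood at 121 CPM with [H] HMGB1 and 107 CPM with BSA and did not pass (adjusted p = 0.0967).

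Over all tested genes 0.799% passed, and of the 37 pathway lists examined 21 held no gene past the test. They covered, besides those above, glycolysis, cholesterol synthesis, lipogenesis, antioxidant and NRF2 targets, p53 targets, the unfolded protein response, heat shock chaperones, the circadian clock, growth factors, proteoglycans and iron handling. Of 25 unfolded protein and integrated stress response genes 20 had a negative log2 fold change, with a median of -0.0529; Atf4, the transcription factor of the integrated stress response, had 471 CPM with [H] HMGB1 and 512 CPM with BSA (adjusted p = 0.145). All 11 tested Notch genes were on the positive side (median 0.0996), from Jag1 at 0.01 to Hes1 at 0.26. The receptor gene Notch2 had 694 CPM with [H] HMGB1 and 622 CPM with BSA (adjusted p = 0.192). The 17 lipogenesis genes had a median of 0.0922, and the fatty acid synthase gene Fasn stood at 684 CPM with [H] HMGB1 and 617 CPM with BSA (adjusted p = 0.142). The signs of these 3 medians were the same with DESeq2 size factors and with library totals. Those scalings moved the median of all genes only to 0.006 and 0.0111, so they could hardly change such a sign. With a trend by transcript length removed, as described below, the medians were -0.0294 for the stress response, 0.0898 for Notch and 0.0506 for lipogenesis.

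Interferon-stimulated genes gave no call, beside 0.799% of all tested genes called. All 21 tested members had a negative log2 fold change, with a median of -0.621, and the [H] libraries lay wholly below the BSA libraries in 6, a pattern that 10.7% of the tested genes showed. Mx2, an interferon-induced antiviral GTPase gene, measured 6.81, 6.75 and 4.28 CPM with [H] HMGB1, against 9.66, 13.6 and 52.3 CPM with BSA (log2 -2.02, adjusted p = 0.316). Irf7, the factor that amplifies the interferon response, measured 40.1, 38.8 and 36.7 CPM with [H] HMGB1, against 43.2, 42.7 and 69.2 CPM with BSA (log2 -0.41, adjusted p = 0.333). In both genes BSA library 3 was far above its group. The mean centred log2 level of the list was -0.223, -0.291 and -0.458 in the [H] libraries, against -0.151, 0.0876 and 1.03 in the BSA libraries. Without BSA library 3 the median was -0.177. The interferon-induced chemokine gene Cxcl10 was also highest in that library, at 10.5, 7.31 and 6.01 CPM with [H] HMGB1, against 10.1, 7.31 and 32.1 CPM with BSA.

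The number of calls changed widely when 1 library was left out. Leaving out 1 of the 6 libraries gave between 13 and 195 called genes. Such a fit also rests on fewer libraries, so a call can be lost with its fold change kept. Apln without BSA library 2 stood at log2 0.593 (adjusted p = 0.0926). In Zfp710 the change itself shrank, to 0.349 without BSA library 3 (adjusted p = 0.13). Without BSA library 3 there were 46, of which 7 were higher and 39 lower. Without BSA library 2 and without [H] library 2 there were 0 higher genes, with 14 and 13 lower genes, and without [H] library 3 there were 1 higher and 17 lower. Without [H] library 1 the count was 46, and without BSA library 1 it was 195. Of the 81 genes, 36 kept their call in only 1 of the 6 fits and 13 kept it in all 6. All 13 were lower with [H] HMGB1, among them Serpinb2, Kcnk2, Il1rn, Ccl2, Lgalsl, Rasl11b, Nkd2, Ptgs2, Enpp3, C1qtnf3 and Grem1. Their largest adjusted p in these fits ran up to 0.0372, in Ccl2. They also kept their call in each of the other settings planned with a test of every gene at the same threshold, where that setting gave them a value (15 settings with the left-out libraries). Apln kept its call in 4 fits (adjusted p up to 0.114), Bmp4 in 1 (up to 0.237), Fbn1 in 2 (up to 0.105), Tgfb3 in 3 (up to 0.158) and Cyr61 in 4 (up to 0.0967). Egr2 kept it in 3 (up to 0.239). Id2, Wnt9a, Ctgf, Plod2, Cd55 and Mki67 each kept it in only 1. Their largest adjusted p ran from 0.137 in Ctgf to 0.242 in Cd55.

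**Figure D3:**
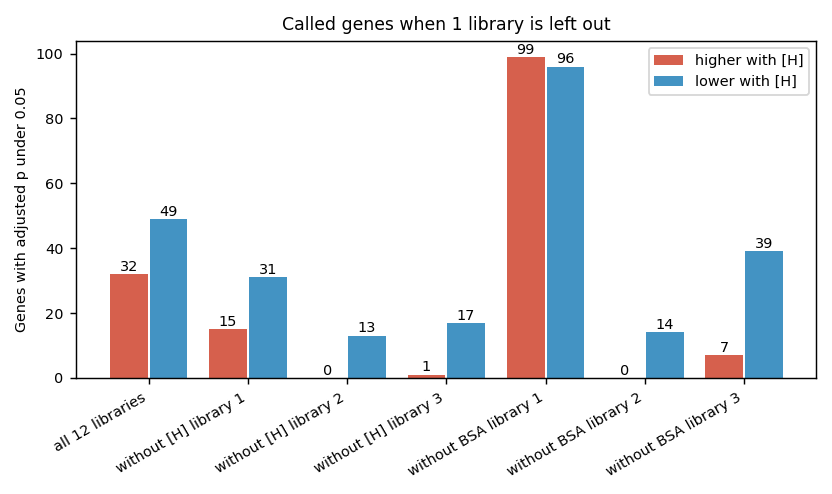
Number of genes called higher (red) and lower (blue) with [H] HMGB1 in the fit of all 12 cell libraries and in the fits that leave out 1 library each. The count of 32 higher genes drops to 0 without [H] library 2 or BSA library 2, while the lower genes range from 13 to 96.

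The higher and lower genes differed in transcript length. No rat transcript lengths were at hand, so the longest protein-coding transcript of the mouse gene with the same symbol stood in, which was found for 95.7% of the tested genes. The median was 7664 nt for the 32 higher genes, 2793 nt for the 47 lower genes with a match and 3105.5 nt for all tested genes. Of the higher genes 30 lay above the median of all, and of the lower genes 20 did. With the genes cut by length into 5 bins of about equal size, the median log2 fold change was -0.0596, -0.0194, 0.00119, 0.0283 and 0.078 from the shortest to the longest bin. The longest bin, 5000 nt and more, held 24 of the higher genes and 3 of the lower ones. The [H] and BSA libraries did not overlap in it: the median of the longest bin minus that of the shortest was 0.0655, 0.0659 and 0.0861 (log2) in the [H] libraries, against -0.00939, -0.102 and -0.107 in the BSA libraries. The same value was 0.147, 0.126 and 0.0264 in the [O] libraries and -0.0996, -0.0934 and 0.151 in the [SO3] libraries, so it also varied widely within a group. Fat4, Fbn1, Itga1, Mki67 and Zfhx4 are among the long genes, with mouse transcripts of 16109, 11971, 10967, 10061 and 13874 nt.

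With a length trend removed from every library, an alternative added after the data were seen, 133 genes were called, 34 higher and 99 lower. Of the 47 lower genes with a length 47 stayed called, the 13 that held in all 6 left-out fits included. Of the 32 higher genes 19 stayed, among them Apln (log2 0.59, adjusted p = 0.00395), Bmp4 (0.28, 0.0118) and Uhrf1 (0.22, 0.0174). Others stayed called with a change more than 1.5 times smaller. Fat4 stood at 0.26 against 0.44 before, Itga1 at 0.19 against 0.33 and Zfhx4 at 0.15 against 0.31. The 13 that did not stay included Fbn1 (0.09, 0.0676), Mki67 (0.07, 0.39), Adgrl1 (0.19, 0.0639) and Phlpp2 (0.28, 0.0669). Beyond this alternative, the part of the length shift in the calls was not tested.

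**Figure D4:**
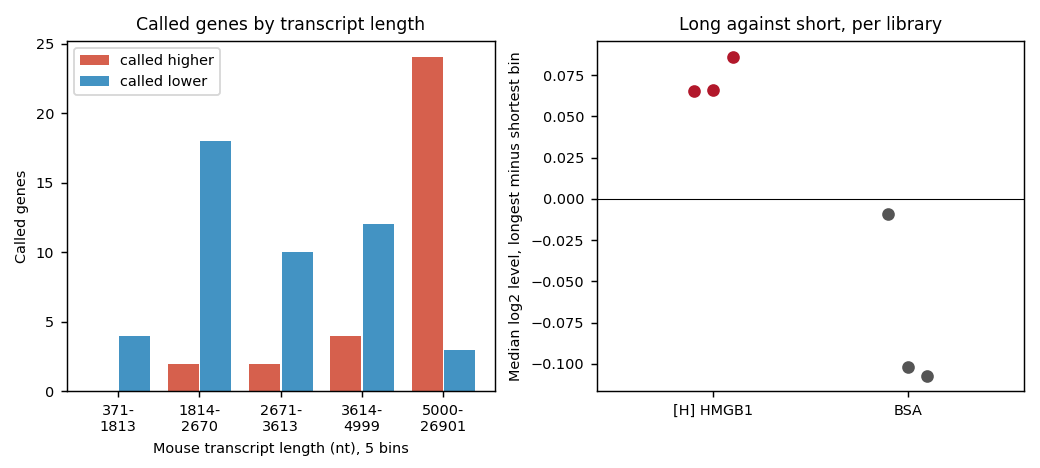
Left, called genes in 5 bins of mouse transcript length (nt), higher in red and lower in blue; the longest bin holds 24 of the higher genes. Right, 1 point per library for the median log2 level of the longest bin minus that of the shortest; the [H] libraries lie at 0.0655 to 0.0861 and the BSA libraries at -0.107 to -0.00939.

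The same genes were then read in cells given the other forms. The contrasts against BSA share the BSA libraries and the contrasts against [H] HMGB1 share the [H] libraries, so the values are set side by side. Between [O] and [H] HMGB1 40.8% of all tested genes differed, and between [SO3] and [H] HMGB1 63.4%, so a difference in a single gene is common here. Against BSA 43.9% of genes changed with [O] and 63.3% with [SO3] HMGB1. The inflammatory genes that were lower with [H] HMGB1 stood above BSA with the other forms. Ccl2 averaged 30.8 ± 3.33 CPM with [H], 953 ± 32.4 CPM with [O], 363 ± 36.5 CPM with [SO3] HMGB1 and 49.7 ± 2.55 CPM with BSA (SD, n = 3 each), and its log2 difference of [O] minus [H] was 4.95 (adjusted p = 7.1e-17). Ptgs2 averaged 19.9 CPM with [H], 172 CPM with [O], 162 CPM with [SO3] HMGB1 and 26.9 CPM with BSA. Il1rn averaged 12.5, 42.6, 29.6 and 20.6 CPM in the same order. Each of these was lowest with [H] HMGB1 and differed between [H] and each other form (largest adjusted p = 4.22e-12, for Il1rn).

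Other lower genes were lower than BSA with every form. Kcnk2 averaged 8.94 CPM with [H], 8.22 CPM with [O], 10.4 CPM with [SO3] HMGB1 and 14.8 CPM with BSA. Neither [O] (log2 -0.12 against [H], SE 0.11, adjusted p = 0.427) nor [SO3] HMGB1 (0.22, SE 0.11, adjusted p = 0.0742) was shown to differ from [H] HMGB1 in it. Nkd2, Lgalsl and Grem1 were also below BSA with each form, and further below with [O] and [SO3] HMGB1 than with [H] HMGB1 (largest adjusted p of these differences 0.0359, for Grem1). Nkd2 stood at log2 -0.46 with [H], -1.05 with [O] and -1.33 with [SO3] HMGB1. Lgalsl stood at -0.55, -0.93 and -0.88, and Grem1 at -0.21, -0.30 and -0.33 in the same order. Rasl11b, Enpp3 and Cyr61 were lower with [H] and [SO3] HMGB1 and higher with [O] HMGB1 (Rasl11b -0.50, -0.76 and 1.55; Enpp3 -0.40, -0.54 and 1.06; Cyr61 -0.28, -0.47 and 0.78 for [H], [SO3] and [O]).

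Apln rose with [H] HMGB1 and fell with the other forms. It averaged 10.7 CPM with [H], 2.88 CPM with [O], 1.68 CPM with [SO3] HMGB1 and 7.09 CPM with BSA, and the log2 difference from [H] was -1.89 for [O] (adjusted p = 9.36e-12) and -2.66 for [SO3] HMGB1 (adjusted p = 6.67e-14). Olfml2a (log2 against BSA 0.47 with [H], -1.25 with [O] and -1.25 with [SO3]), Zfp467 (0.40, -0.46 and -1.07) and Zfhx4 (0.31, -0.74 and -1.02) had the same order of signs. Zfp710 stood at 0.49 with [H], 0.46 with [O] and 0.44 with [SO3] HMGB1, and its differences between forms did not pass (adjusted p = 0.879 and 0.671 against [H]).

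**Figure D5:**
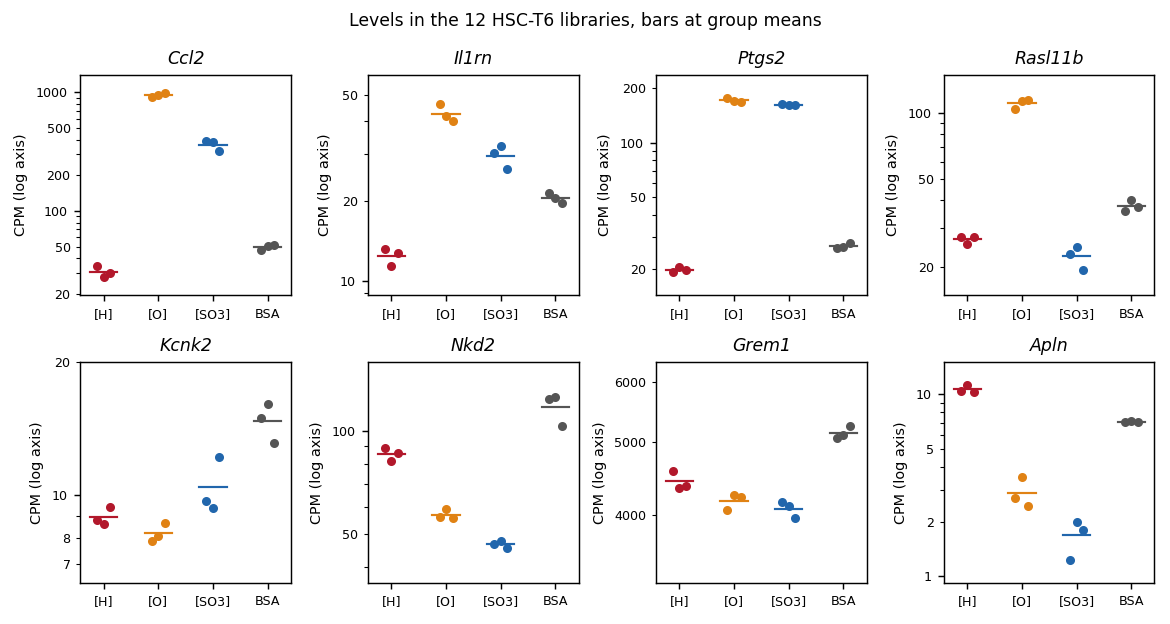
CPM of 8 named genes in the 12 HSC-T6 libraries, 1 point per library and a bar at each group's mean, on log axes that differ between panels. Ccl2, Il1rn and Ptgs2 are lowest with [H] HMGB1 and above BSA with the other forms, Rasl11b is above BSA with [O] HMGB1 alone, Kcnk2, Nkd2 and Grem1 are below BSA with every form, and Apln is highest with [H] HMGB1.

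Whole livers of male WT mice that had received CCl4, a liver toxin, for 4 weeks gave a separate set of 3 libraries with [H] HMGB1 and 3 with BSA. In the liver 0 of 13487 genes passed the same test (0% called, 1448 at an unadjusted p under 0.05, and 3 by DESeq2). Of the 49 genes lower in the cells 41 were tested there, with 30 negative and 11 positive and a median log2 fold change of -0.442. Of the 32 higher genes 29 were tested, with 10 positive and 19 negative and a median of -0.226. Over all genes tested in the liver 6742 were positive and 6745 negative, with a median of -9.36e-05. Ccl2 measured 8.32, 14.9 and 2.74 CPM in [H] livers, against 5.92, 40.3 and 6.24 CPM in BSA livers (log2 -1.0, adjusted p = 0.616). Il1rn measured 69.1, 88.8 and 29.8 CPM in [H] livers, against 37.7, 442 and 31.5 CPM in BSA livers (log2 -1.45, adjusted p = 0.534). For both genes the groups overlapped and BSA liver 2 was the highest. It was also far above the other BSA livers in further genes lower in the cells, such as Cyr61 (266 against 22.3 and 16.3 CPM) and H3f3b (709 against 199 and 185 CPM). In others it was not, such as Cdh11 (2.21 against 9.44 and 5.81 CPM). The sign counts were not repeated without BSA liver 2. Id2, which was lower in the cells, stood the other way, at 164, 237 and 183 CPM in [H] livers, against 109, 89.2 and 114 CPM in BSA livers (log2 0.91, adjusted p = 0.414). In these tissue libraries fewer cells of a type and less RNA per cell cannot be told apart.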

How the data were processed

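Libraries were made with the Illumina TruSeq Stranded mRNA chemistry from cell RNA isolated with a miRNeasy kit, per the labels' protocols. The authors deposited whole-number read counts per gene, 1 column per library. Per the submitters' processing notes the genome build was mm10, a mouse build, also for the rat cells. The cell table itself carries 49 symbols beginning with RT1-, the prefix of the rat major histocompatibility genes, and 0 beginning with H2-, that of the mouse. Which aligner, counter, annotation and strand setting were used is not given in the sources used here, so overlapping genes, antisense genes and near-identical copies are uncertain. All value columns matched a sample (0 unmatched). Reads without a gene, 32% to 34.9% of the gene counts in the 6 libraries, and ambiguous reads, 0.299% to 0.325%, were left out.

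edgeR 4.0.16 in R 4.3.3 was used. Genes were kept by filterByExpr (minimum count 10, minimum total 15), scaled by TMM, and fitted in 1 robust quasi-likelihood model of all 12 cell libraries, so that the groups share an estimate of the spread. Calls were made at an adjusted p under 0.05 (Benjamini-Hochberg). CPM values use TMM factors, errors are SD over n = 3, and fold changes are log2 of [H] over BSA with their SE. Levels are not per length and were not compared between genes. The code was tested on simulated counts with known changes. Named genes were the 12 highest and 12 lowest calls by fold, calls that held without each library in turn, called members of the 37 pathway lists, and 9 fixed genes (Hmgb1, Ager, Tlr2, Tlr4, Col1a1, Col1a2, Acta2, Tgfb1, Timp1). Other list members were named after their values were seen. The comparison, the members and the lists were chosen with earlier results of these data known. Alternatives used DESeq2 1.42.0, limma 3.58.1 (voom), other filters and scalings, a replicate block and left-out libraries. No pair of replicate libraries held identical counts. The livers were fitted in their own table in the same way. The MO and CCl4 livers were not used. Some genes that fit the naming rule are not reported here.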

Additional observations from a re-analysis of the deposited data

How the results depend on the processing

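Against 81 calls, a fit of only the [H] and BSA libraries called 454 genes, no filter on low counts 168, DESeq2 140, the length trend removed 133, an adjusted p under 0.01 24 and an adjusted p under 0.1 211. Leaving out 1 library each gave 13 to 195. Genes with a known length (80), a stricter filter (81), DESeq2 size factors (71), library totals (101), limma-voom (78) and the fit without robust estimation (81) stayed within 1.5 times. Same-numbered [H] and BSA libraries did not deviate together (r 0.0515, -0.0247 and -0.0844). These values cannot show whether such libraries were handled as pairs. With a replicate block 39 genes were called, and 14 of 39 named genes lost their call. None of the 39 named calls that was given a value changed sign under these settings. Of the 9 fixed genes, none of which was called in the fit of all 12 libraries, Tlr2 (0.45) stood at -0.0004 without BSA library 3, Tlr2 stood at -0.213 and Col1a2 (0.0328) at -0.0309 without [H] library 3, and with the length trend removed Col1a2 stood at -0.0166 and Timp1 (-0.0674) at 0.0154. Without BSA library 3 the list medians also moved to -0.0289 for collagens, -0.0258 for contractile genes, 0.0169 for TGF-beta and BMP genes and -0.0109 for Wnt genes. With the length trend removed they were -0.0641, -0.0102, -0.0288 and -0.0804 in the same order, so the TGF-beta and BMP median changed sign. The named calls lost were 0 to 5 under the other tools, filters and scalings, 4 with the length trend removed, and 1 to 26 without 1 library. DESeq2 gave no adjusted p for 8 of the 39. Col1a1 passed in the fit of only these libraries (log2 -0.0979, adjusted p = 0.044). In the liver, 0 genes became 3 by DESeq2 and stayed 0 in the other settings. At a depth of 11752661 to 16027984 counts, small differences in Tlr2 (5 and 3 counts) and similar genes were not detectable.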
